A study of Mus musculus with 6 samples.

Results

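Brown fat cells burn lipid to make heat, and 10 genes of that programme (Ucp1, Cidea, Elovl3, Dio2, Cox8b, Cox7a1, Ppargc1a, Prdm16, Plin5 and Otop1) were followed in mouse aorta. The list was set by known function, with earlier results of these data known. Each gene was represented by the probe set that names it alone and has the highest mean over the 6 arrays. All 10 of 10 had such a probe set, out of 19752 genes measured this way. Aorta RNA of 20-week-old C57BL/6 mice was measured on 6 arrays: 3 from mice lacking Apoe (apoe-/-, called ApoE-KO) and 3 from mice lacking both Apoe and Adora1 (apoe-/- adora1-/-, called DKO). Both groups therefore lack Apoe, the lipid transport protein whose loss makes mice prone to atherosclerosis, and Adora1 encodes the adenosine A1 receptor, which lowers cyclic AMP and restrains lipolysis in fat cells. Neither a wild-type sample nor one lacking Adora1 alone was among the arrays. The series text calls the comparison group Adora1 knockouts, whereas the labels of every sample in it name Apoe, so groups were taken from the samples. Sex, diet, pooling of animals and how much surrounding fat was left on the vessels are not stated, so p-values measure the spread between these samples. Adora1 is not analysed here, so its level does not check the labels.

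The thoracic aorta of mice is sheathed in perivascular fat with many features of brown fat. In such cells noradrenaline acts through beta-adrenergic receptors and cyclic AMP to switch on lipolysis and, with PGC-1alpha (Ppargc1a) and PRDM16, a set of mitochondrial genes. Uncoupling protein 1 (Ucp1) then lets protons re-enter the mitochondrial matrix without making ATP, so that fuel is turned into heat.

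Values are log2 intensities, and a difference of 1 is a doubling of the signal. Array medians were 8.01 to 8.02, and any 2 arrays correlated at 0.983 or more. The smooth muscle genes that define the artery wall were high on all arrays, Acta2 at 13.97 to 14.06 and Myh11 at 13.23 to 13.61. Same-numbered arrays of the groups deviated together from their group means (correlations of 0.60, 0.50 and 0.64 across probe sets), so replicate numbers were taken as pairs. Both replicate 3 arrays stood apart in lung genes, where the airway gene Scgb1a1 read 13.70 (ApoE-KO) and 12.93 (DKO), and 5.40 to 5.97 on the other 4 arrays.

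RefSeq promoters (GRCm38.p6; 250 bases before the start and 50 after) were at hand for 8 of the 10 genes. They are shown for the pair whose levels ran most alike, Ucp1 and Cox8b, and for Dio2 and Ppargc1a. Both of the latter are switched on by cyclic AMP, as the Ucp1 programme is, and their array profiles were less close to that of Ucp1. Capitals mark matches, on either strand, to the cyclic AMP response element TGACGTCA, its part TGACGT, the nuclear receptor core motif AGGTCA, and the TATA box TATAAA.
Ucp1, chr8:83290098-83290397, plus strand: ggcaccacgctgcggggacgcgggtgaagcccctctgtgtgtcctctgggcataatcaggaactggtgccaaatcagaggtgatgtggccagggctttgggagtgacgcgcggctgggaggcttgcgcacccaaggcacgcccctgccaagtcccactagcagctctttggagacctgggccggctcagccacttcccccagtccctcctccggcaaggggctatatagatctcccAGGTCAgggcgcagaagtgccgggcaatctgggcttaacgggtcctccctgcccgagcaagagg
Cox8b, chr7:140900397-140900696, minus strand: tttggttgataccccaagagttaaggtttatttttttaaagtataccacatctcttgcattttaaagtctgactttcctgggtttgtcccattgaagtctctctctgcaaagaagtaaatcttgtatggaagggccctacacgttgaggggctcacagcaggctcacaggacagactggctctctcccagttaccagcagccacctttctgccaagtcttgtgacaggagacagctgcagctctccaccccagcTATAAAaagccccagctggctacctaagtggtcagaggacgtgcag
Dio2, chr12:90738989-90739288, minus strand: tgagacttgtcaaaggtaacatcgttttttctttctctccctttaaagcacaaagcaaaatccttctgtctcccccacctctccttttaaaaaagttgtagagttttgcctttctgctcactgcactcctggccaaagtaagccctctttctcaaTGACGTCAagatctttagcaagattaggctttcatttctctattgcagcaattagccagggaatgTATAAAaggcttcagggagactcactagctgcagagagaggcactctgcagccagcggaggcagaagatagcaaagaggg
Ppargc1a, chr5:51567676-51567975, minus strand: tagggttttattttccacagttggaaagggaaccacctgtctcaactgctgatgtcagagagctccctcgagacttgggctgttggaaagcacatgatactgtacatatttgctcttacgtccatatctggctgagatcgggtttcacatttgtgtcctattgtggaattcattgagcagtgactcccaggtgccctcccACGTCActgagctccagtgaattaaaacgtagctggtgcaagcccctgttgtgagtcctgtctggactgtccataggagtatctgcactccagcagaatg

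The full response element was found in the Dio2 window, 95 bases before the start, and in 1.79% of all 32851 promoters of the same length. Being its own reverse complement it holds the shorter TGACGT on both strands, which 7.51% of promoters carry on either strand. The Ppargc1a window has that part on the reverse strand, 50 bases before the start. The Ucp1 window has AGGTCA 14 bases before the start, a run of letters held by 16.3% of promoters. TATAAA lies 30 bases before the Dio2 start and 4 bases after the annotated Cox8b start, and 13.6% of promoters have it. AAGGTCA, which contains AGGTCA and is bound by estrogen-related receptors, was in 4.72% of promoters and in 0 of the 9 windows of the 8 genes. These matches describe letters only. Sequence outside the windows was not searched, so a missing match does not show that a gene lacks such control, and binding was not measured.

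Ucp1 varied more between arrays than nearly every other transcript. It read 9.62, 9.92 and 10.98 in ApoE-KO replicates 1, 2 and 3, and 9.01, 10.15 and 9.60 in the DKO replicates of the same numbers. The highest array was ApoE-KO replicate 3 and the lowest DKO replicate 1, a 3.93-fold span that 0.432% of all probe sets exceeded. The groups overlapped, since DKO replicate 2 stood above 2 of the 3 ApoE-KO arrays. By replicate number, DKO minus ApoE-KO was -0.61, 0.24 and -1.38. The mean difference was -0.58, with a 95% interval of -1.53 to 0.36 that includes 0, and did not exceed replicate spread (limma, adjusted p = 0.880; 0.331 with the replicate number as a block). Without ApoE-KO replicate 3 it was -0.18, and without DKO replicate 1 it was -0.30. In whole tissue, fewer cells of a type and less RNA per cell cannot be told apart.

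**Figure D1:**
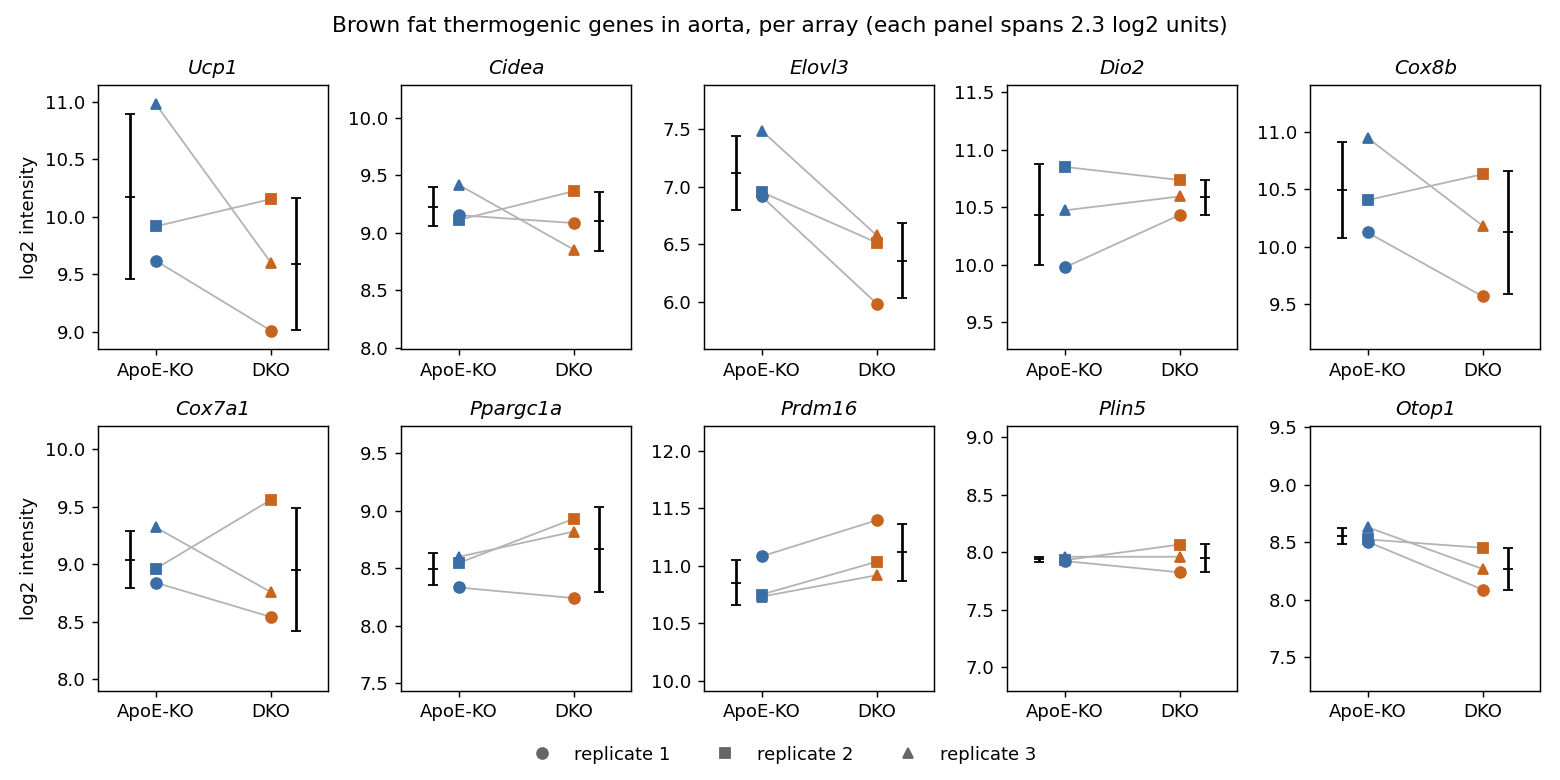
Log2 intensity (vertical axis) of each of the 10 genes in ApoE-KO and DKO (horizontal axis), with 1 point per array, marker shape for the replicate number, grey lines between same-numbered arrays, and black bars for the mean ± SD (n = 3). Every panel spans the same number of log2 units, so the wide spread of Ucp1 (9.01 to 10.98) and the narrow spread of Plin5 (7.83 to 8.07) can be read directly, and for Elovl3 and Otop1 the groups do not overlap.

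Cox8b, the form of cytochrome c oxidase subunit 8 found in heart, skeletal muscle and brown fat, had the array profile closest to that of Ucp1. It read 10.12, 10.41 and 10.95 on the ApoE-KO arrays and 9.57, 10.63 and 10.18 on the DKO arrays. ApoE-KO replicate 3 was again the highest array and DKO replicate 1 the lowest, and DKO replicate 2 again lay above 2 ApoE-KO arrays. After centring each gene on its mean, the root mean square difference between Cox8b and Ucp1 over the 6 arrays was 0.21 log2 units, the smallest of 19751 genes, where the median gene stood at 0.62. Without ApoE-KO replicate 3 it was 0.04 and again the smallest. This is a description over 6 arrays, which share pair effects, with no test. Levels were centred but not scaled, so the measure depends on how much a gene varies as well as on its shape. A gene with a small span over the arrays stands far from Ucp1 even where its shape is similar. The mean difference of Cox8b between the groups was -0.37 (95% interval -1.08 to 0.35; limma, adjusted p = 0.899), with pairs at -0.56, 0.23 and -0.77. Leaving out DKO replicate 1 gave -0.09, and leaving out ApoE-KO replicate 3 gave -0.14.

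The other genes of the 10 were less close to Ucp1. Elovl3 ranked 11th and Cox7a1 ranked 55th among the 19751 genes by this measure. Otop1 was 410th, Cidea 702nd and Ppargc1a 2131st. Plin5 was 3770th, Dio2 8178th and Prdm16 19000th, which places Prdm16 among the genes whose array profile was least like that of Ucp1. The white fat hormone gene Adipoq was 391st. Without ApoE-KO replicate 3 the order changed, with Cox7a1 at rank 91, Ppargc1a at 548, Otop1 at 627 and Elovl3 at 1694. Plin5 was then at 2023, Cidea at 3063, Dio2 at 5789, Prdm16 at 18772 and Adipoq at 1660. In both settings the ranks also reflect how much each gene varied.

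**Figure D2:**
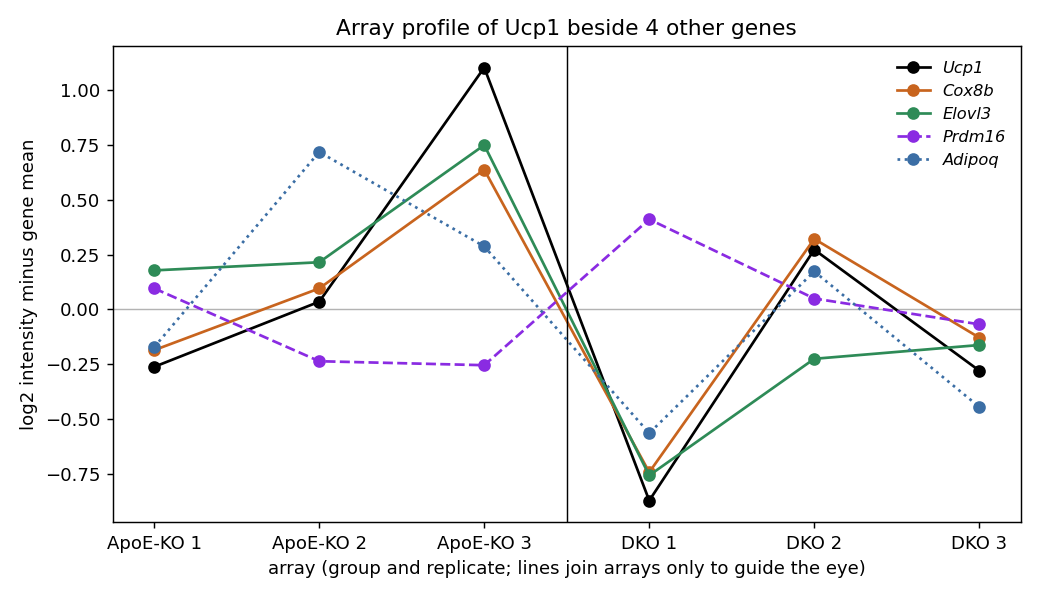
Log2 intensity minus each gene's own mean (vertical axis) on the 6 arrays (horizontal axis) for Ucp1, Cox8b, Elovl3, Prdm16 and the white fat gene Adipoq. Ucp1, Cox8b and Elovl3 share their highest array, ApoE-KO replicate 3, and their lowest, DKO replicate 1. Prdm16 is lowest and highest on those same arrays, and Adipoq peaks on ApoE-KO replicate 2.

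Outside the 10, the genes whose profile came closest to that of Ucp1 were Cd36, a fatty acid transporter (0.22), Ces1d, a lipase-like carboxylesterase of fat and liver (0.27), and Ddah1, which degrades methylarginines (0.28). Adig, a gene of fat cell differentiation (0.29), Rasgrp3, an activator of Ras (0.29), and the homeobox gene Hoxc5 (0.29) came next. The list ended with Slc6a2, the noradrenaline transporter of sympathetic nerve endings (0.30), and Slc7a10, an amino acid transporter of fat cells (0.31). The ranks of these genes depended on ApoE-KO replicate 3. Without that array 0 of these 8 stayed among the 8 nearest, and Cd36 moved from 2nd to 29th. The distances themselves did not grow in the same way. That of Cd36 from Ucp1 went from 0.22 to 0.13, and that of Ddah1 stayed at 0.28, while other genes came closer.

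Prdm16 and Ppargc1a, regulators of the programme, had higher means in DKO, and neither passed in limma. Prdm16, a zinc finger factor that sets brown fat identity and is also made by arterial endothelium, read 11.08, 10.75 and 10.73 on the ApoE-KO arrays and 11.40, 11.03 and 10.92 on the DKO arrays. Every DKO array exceeded its same-numbered partner, by 0.31, 0.29 and 0.19, although the groups overlapped because ApoE-KO replicate 1 stood above DKO replicates 2 and 3. The mean difference was 0.26 (95% interval -0.10 to 0.62; limma, adjusted p = 0.862; 0.108 with the block), and 0.12 without DKO replicate 1. Replicate number took 64.7% of the variance of Prdm16 over the arrays, genotype 33.8% and the rest 1.49%. Replicate 1 was the highest of each group, and it was also the highest of each group in the mean of 12 aortic smooth muscle genes (12.49 on the ApoE-KO arrays and 12.52 on the DKO arrays, against 12.28 to 12.41 elsewhere). The mean of 10 endothelium genes went the other way. It was lowest on the replicate 1 arrays (9.81 in each group, against 10.19 to 10.37 elsewhere). The part of tissue makeup in the Prdm16 levels was not tested.

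Ppargc1a, the coactivator that drives mitochondrial biogenesis, read 8.33, 8.54 and 8.60 on the ApoE-KO arrays and 8.24, 8.93 and 8.82 on the DKO arrays. DKO replicates 2 and 3 lay above all ApoE-KO arrays and DKO replicate 1 below all of them. The difference was 0.17 (95% interval -0.26 to 0.61; limma, adjusted p = 0.932), and a second probe set of the gene gave 0.16. Without DKO replicate 2 it was 0.04, and without DKO replicate 1 it was 0.38. Dio2, the deiodinase that makes active thyroid hormone inside brown fat cells, read 9.98, 10.85 and 10.47 on the ApoE-KO arrays and 10.43, 10.74 and 10.60 on the DKO arrays. Its DKO arrays all lay inside the ApoE-KO range, with a difference of 0.15 (95% interval -0.35 to 0.66; limma, adjusted p = 0.943). Replicate number took 74.7% of its variance and genotype 7.68%.

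Elovl3 and Otop1 were the members whose groups did not overlap, both with lower values in DKO. Non-overlap with lower values in DKO was seen in 6.47% of all 25254 probe sets, and with higher values in 5.55%. Among the 10 genes it was seen in 2 and in 0. Elovl3, which lengthens very long chain fatty acids and is strongly induced in brown fat by cold, read 6.92, 6.96 and 7.49 on the ApoE-KO arrays and 5.98, 6.52 and 6.58 on the DKO arrays. The lowest ApoE-KO array stood above the highest DKO array, and each pair differed the same way, by -0.93, -0.44 and -0.91. All values were below the array medians, and the mean difference of -0.76 corresponded to a 1.70-fold lower signal (95% interval -1.25 to -0.28). It did not pass in limma over all probe sets (adjusted p = 0.861), nor with the replicate block (adjusted p = 0.0591). With the block and without both replicate 1 arrays it fell by 0.68 (limma, adjusted p = 0.0464) in a fit that passed 415 probe sets. So few arrays were left in that fit that its p-values lean heavily on the variance limma borrows across probe sets. Genotype took 67.6% of its variance, more than in any other of the 10 genes.

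Otop1, a proton channel of the otopetrin family that is abundant in brown fat, read 8.50, 8.53 and 8.63 on the ApoE-KO arrays and 8.09, 8.45 and 8.27 on the DKO arrays. Its groups were apart by a small gap, between DKO replicate 2 and ApoE-KO replicate 1. The difference was -0.28 (95% interval -0.54 to -0.03; limma, adjusted p = 0.861; 0.189 with the block), with pairs at -0.42, -0.07 and -0.36.

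Cidea, Cox7a1 and Plin5 did not separate the genotypes. Cidea, a protein of lipid droplet fusion in brown fat, read 9.15, 9.11 and 9.42 on the ApoE-KO arrays and 9.08, 9.36 and 8.85 on the DKO arrays, a difference of -0.13 (95% interval -0.48 to 0.23). Cox7a1, the muscle and brown fat form of cytochrome c oxidase subunit 7A, read 8.84, 8.96 and 9.32 on the ApoE-KO arrays and 8.54, 9.56 and 8.76 on the DKO arrays, a difference of -0.09 (95% interval -0.71 to 0.54). DKO arrays were both the highest and the lowest of the 6 for Cox7a1. Plin5, which tethers lipid droplets to mitochondria, stayed between 7.83 and 8.07 on all arrays, with a difference of 0.01 (95% interval -0.19 to 0.21). It was the only one of the 10 whose span over the arrays was below the median span of all probe sets (0.24 against 0.35). In limma the adjusted p-values of these 3 genes were 0.935, 0.974 and 0.992.

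Over the 10 genes, 6 had a lower and 4 a higher mean in DKO, and the median difference was -0.11, against -0.00 over all probe sets. The direction depended on the pair. In pair 1, 8 of the 10 genes were lower in DKO, in pair 2 only 3 were, and in pair 3 there were 6. Over all probe sets those shares were 50.1%, 52.4% and 45.5%. Ucp1, Cidea, Cox8b and Cox7a1 were each lower in DKO in pairs 1 and 3 and higher in pair 2. Elovl3 and Otop1 were lower in all 3 pairs, as were 19.1% of all probe sets, and Prdm16 was higher in all 3, as were 21.2%.

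The limma fit without pairing called 0 of the 10 genes, and 0 of all 25254 probe sets (0%). At an unadjusted p under 0.05 it held 2 of the 10, Elovl3 and Otop1, where 5.62% of all probe sets did. With the replicate block 0 of the 10 passed, where 0.174% of all probe sets did. At an unadjusted p under 0.05 the block held 3, Elovl3, Prdm16 and Otop1, where 16.2% of all probe sets did. An unmoderated linear model of genotype also called 0 of the 10. With the block, an unmoderated model called 0 of all probe sets where limma called 44, which include those named below.

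**Figure D3:**
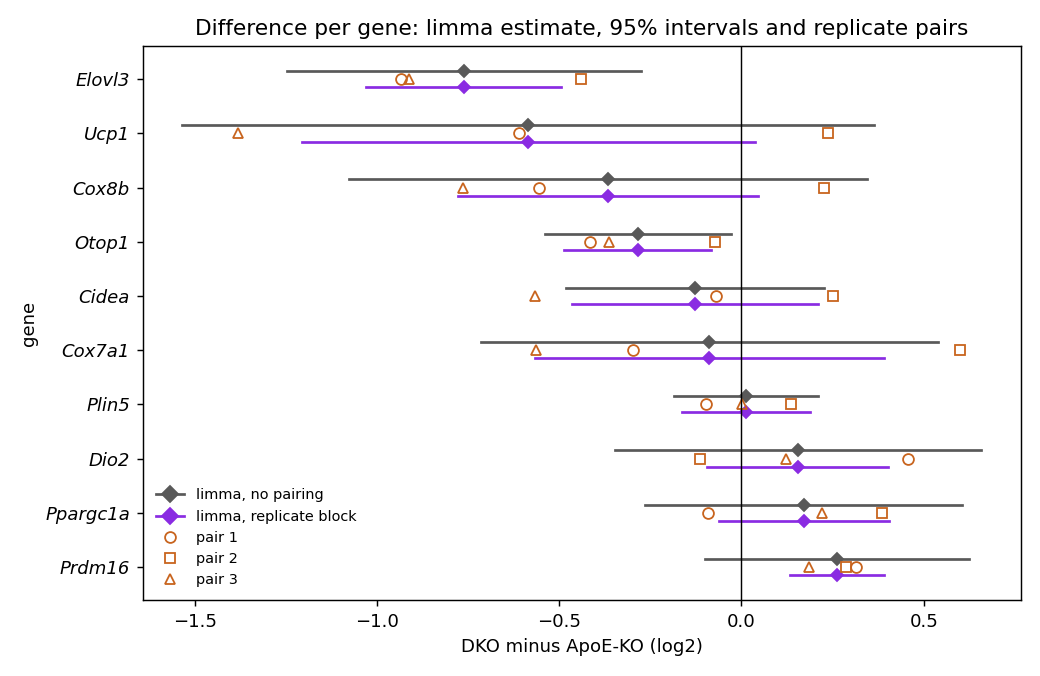
DKO minus ApoE-KO in log2 units (horizontal axis) for each of the 10 genes (vertical axis), ordered by size. Diamonds are limma estimates with 95% intervals without pairing (grey) and with the replicate block (purple), and open symbols are the 3 same-numbered pairs. For Ucp1, Cidea, Cox8b and Cox7a1 pair 2 lies on the other side of 0 from pairs 1 and 3, while the pairs of Elovl3, Otop1 and Prdm16 each lie on a single side.

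Relatives of the 10 genes were measured alongside them. Cox8a, the widely expressed form of subunit 8, spanned 0.10 over the 6 arrays, with a difference of -0.02 (95% interval -0.18 to 0.13). Cox7a2, the widely expressed form of subunit 7A, had pairs at 0.35, 0.45 and 0.23 and a difference of 0.34 (95% interval -0.19 to 0.87). Among the fatty acid elongases, Elovl6, which acts on newly made palmitate, had a difference of -0.62 (pairs at -1.05, 0.08 and -0.88). Elovl5 was at -0.22, Elovl4 at 0.26 and Elovl7 at 0.32, and for Elovl4 and Elovl7 the DKO arrays lay above all ApoE-KO arrays. The same held for Mecom, the close relative of Prdm16, with 9.05, 9.09 and 9.05 on the ApoE-KO arrays against 9.30, 9.42 and 9.31 on the DKO arrays (difference 0.29). These 3 of 23 relatives stand beside 5.55% of all probe sets with the same order. Ucp3 was at 0.06, Ppargc1b at -0.15, Pprc1 at -0.15, Dio1 at -0.11, Dio3 at -0.16, Cideb at -0.06, Otop2 at -0.08 and Otop3 at 0.07. Plin1 was at -0.19, Plin2 at 0.13, Plin3 at 0.17, Plin4 at 0.07, Elovl1 at 0.04, Elovl2 at -0.01 and Cox7a2l at 0.01. Of 23 such relatives measured out of 24 listed, 12 were lower and 11 higher in DKO. In limma 0 passed without pairing. With the block, where 0.174% of all probe sets passed, 1 fell, the white fat relative of Cidea, Cidec (-0.74, adjusted p = 0.0467).

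In a wider list of brown and beige fat genes, of 31 measured out of 32, 20 were lower and 11 higher in DKO, with a median of -0.07, and 0 passed in limma with or without the block. The members with the smallest p were Aspg, an asparaginase (-0.28), Tmem26, a beige fat surface marker (0.46), Acsl5, an acyl-CoA synthetase (-0.27), and Pdk4, which blocks pyruvate oxidation (0.40). Groups did not overlap in 5 lower and 1 higher of these genes, against 6.47% and 5.55% of all probe sets. Left-out arrays or pairs moved the median between -0.10 and -0.01. Ebf2, a brown fat lineage factor, read 8.86, 9.82 and 9.44 on the ApoE-KO arrays and 8.80, 9.37 and 9.25 on the DKO arrays, and Zic1, which marks the brown fat between the shoulder blades, stayed between 6.20 and 6.66.

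A list of beta-adrenergic and thermogenic signalling genes had a median of -0.02, with 12 of 19 measured lower (24 listed). That median ran from -0.07 to 0.00 over left-out arrays. The list joins lipolysis genes with nuclear receptor and other transcription regulator genes, so its median does not describe lipolysis alone. In all 3 pairs 6 of the 19 were lower and 5 higher, against 19.1% and 21.2% of all probe sets. The adrenergic receptor genes themselves are not analysed here. Abhd5, the activator of the first triglyceride lipase, was at -0.26, Lpl, which releases fatty acids from lipoproteins, at -0.54, the thyroid hormone receptor gene Thra at 0.24, and Lipe, hormone-sensitive lipase, at -0.35. In limma 0 passed with or without the block.

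Brown fat shares its oxidative machinery with muscle and other tissues. Of 18 genes of mitochondrial fatty acid oxidation measured, 15 had a higher mean in DKO, with a median of 0.03. Over all probe sets 50.7% had a lower mean. The pair medians were 0.10, 0.18 and -0.10, so pair 3 went the other way. In all 3 pairs 3 of the 18 were higher, as were 21.2% of all probe sets, and 3 were lower. Quantile normalization applied again gave a median of -0.01. Cpt1a, which admits long-chain fatty acids to mitochondria, read 11.01, 11.15 and 11.28 on the ApoE-KO arrays and 11.74, 11.78 and 11.49 on the DKO arrays. Its difference was 0.52 (limma, adjusted p = 0.750, and 0.0927 with the block). The groups did not overlap, an order with higher values in DKO that 5.55% of all probe sets had. Decr1 was at 0.21, Acot2 at 0.25 and Slc25a20 at 0.17. Respiratory chain genes were split, 13 lower and 15 higher of 28, with a median of 0.00. Cox6a2, a muscle-type subunit, had pairs at -0.22, -0.18 and -0.36, and Cox6c was at 0.16 and cytochrome c, Cycs, at -0.15. Citrate cycle genes had a median of 0.02 over 14, and genes of heat cycles that do not need Ucp1, such as creatine and calcium cycling, 0.03 over 13. In these 4 lists 1 gene passed in limma with the block, Pcx, pyruvate carboxylase (-1.07, adjusted p = 0.0166), where 0.174% of all probe sets did. Without the block 0 passed. With arrays or pairs left out, the medians ran from -0.01 to 0.11 for fatty acid oxidation, -0.01 to 0.08 for the respiratory chain, -0.02 to 0.07 for the citrate cycle and 0.01 to 0.08 for the heat cycles.

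White fat cell genes had their own order of arrays. Of 17 measured, 13 had lower means in DKO, and the median was -0.36, with pair medians of -0.31, -0.32 and -0.46. The same pairs gave -0.20, 0.23 and -0.46 for the 10 brown fat genes. The median was -0.55 without ApoE-KO replicate 1, -0.50 without DKO replicate 2 and -0.24 without DKO replicate 1. In limma with the block, which passed 0.174% of all probe sets, 5 white fat genes fell (Retn, Thrsp, Car3, Cidec and Lgals12), and 0 passed without it. Nnat (0.66), Lep (0.36) and Npr3 (0.14) had higher values in DKO in all 3 pairs and did not pass. For Nnat the groups did not overlap, as in 5.55% of all probe sets with that order. On single arrays the brown fat mean was 9.05, 9.20 and 9.46 on the ApoE-KO arrays and 8.82, 9.34 and 9.05 on the DKO arrays. The white fat mean was 9.48, 9.94 and 9.71 on the ApoE-KO arrays and 9.03, 9.61 and 9.28 on the DKO arrays. ApoE-KO replicate 2 was highest for 9 of the 17 white fat genes but for 1 of the 10 brown fat genes, and ApoE-KO replicate 3 for 2 and 5. DKO replicate 1 was lowest for 12 of 17 and 7 of 10, where 19.0% of all probe sets had their lowest value.

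Brown minus white, the difference of these means on an array, was -0.47 ± 0.25 (SD, n = 3) for ApoE-KO. For DKO it was -0.24 ± 0.03 (SD, n = 3). The difference between the groups was 0.24, for lists chosen with earlier results of these data known. An exact permutation test over the 6 arrays, which ignores the pairs, gave p = 0.2 (two-sided), and its smallest possible p of 0.1 means that it could not pass 0.05 whatever the values. The pairs stood at 0.21, 0.47 and 0.02.

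**Figure D4:**
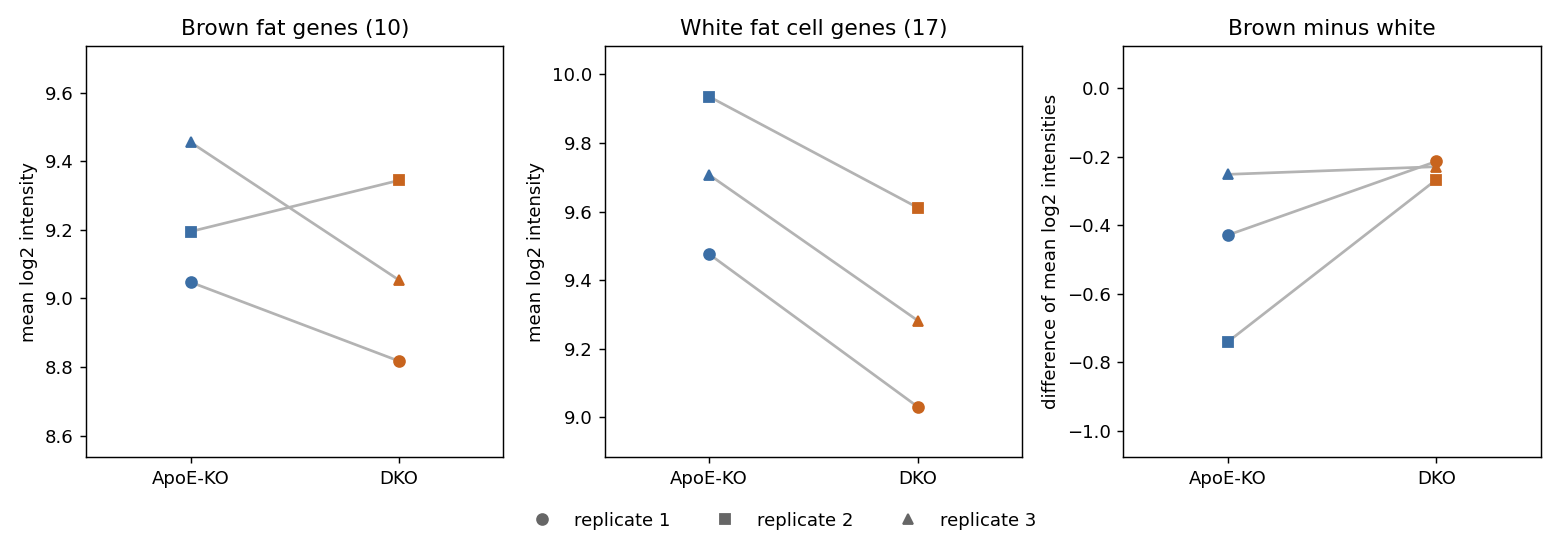
Mean log2 intensity of the 10 brown fat genes, of the 17 white fat cell genes, and their difference (vertical axes) in ApoE-KO and DKO (horizontal axis), with 1 point per array and lines between same-numbered arrays. The white fat mean is lower in DKO in every pair, the brown fat mean is lower in pairs 1 and 3 and higher in pair 2, and the 3 DKO arrays share a brown minus white value near -0.24.

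Genes of other tissues were also high on the array with the highest Ucp1. Of 11 sympathetic nerve genes 10 had their highest value on ApoE-KO replicate 3, as did 14.4% of all probe sets. Among them was Th, the first enzyme of noradrenaline synthesis, at 9.26 there and 7.06 to 7.71 on the other arrays. The mean of that list was 7.21 to 8.20 on the ApoE-KO arrays and 7.04 to 7.26 on the DKO arrays. Skeletal muscle genes were highest there in 12 of 14, with list means of 7.52 to 8.19 on the ApoE-KO arrays and 7.52 to 7.97 on the DKO arrays. Heart muscle genes were highest there in 9 of 12 (means 7.62 to 8.23 and 7.70 to 8.02), and lung genes in 8 of 8 (means 6.58 to 9.73 and 6.44 to 9.12). Lung and skeletal muscle lists were raised on DKO replicate 3 as well, where Ucp1 read 9.60 and Cox8b 10.18. Cox8b and Cox7a1 are also muscle genes, and the part of these tissues in the values of the 10 genes was not tested. Without ApoE-KO replicate 3 the median difference of the 10 genes was -0.00, and without both replicate 3 arrays it was 0.06 with the block.

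**Figure D5:**
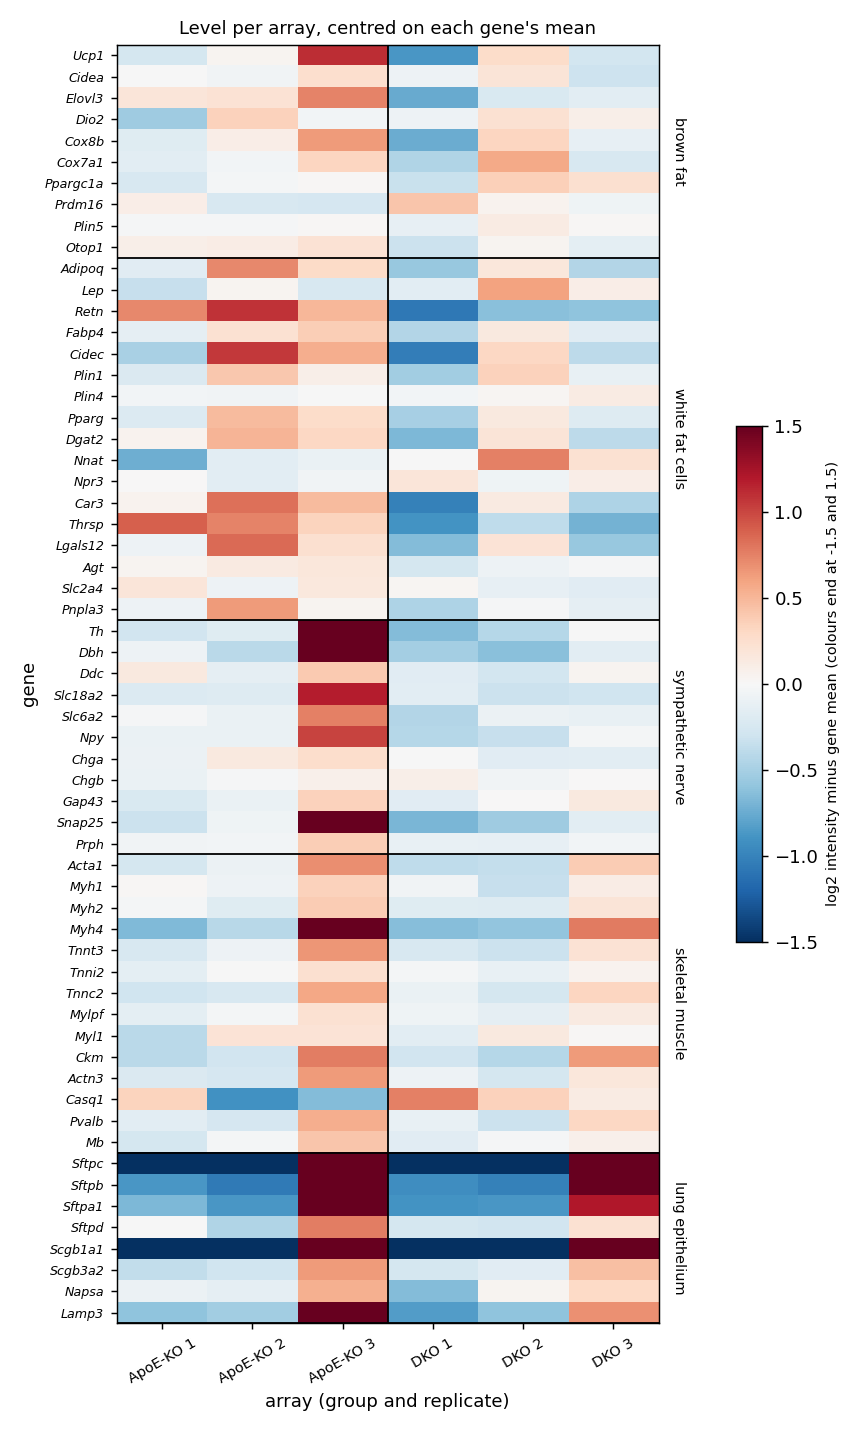
Log2 intensity minus each gene's mean (colour) for brown fat, white fat cell, sympathetic nerve, skeletal muscle and lung genes (vertical axis) on the 6 arrays (horizontal axis). Red on ApoE-KO replicate 3 runs through Ucp1, Elovl3, Cox8b and most nerve, muscle and lung genes. Of the 17 white fat genes, 9 are highest on ApoE-KO replicate 2.

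Of 9 macrophage genes measured, 8 were lowest on DKO replicate 1 and 8 highest on DKO replicate 2, with list means of 9.74 to 9.99 on the ApoE-KO arrays and 9.14 to 10.26 on the DKO arrays. Mesothelium genes had 9 of 9 members higher in DKO, with a median of 0.69 and 3 that rose with the block (limma, 0 without it), where 0.174% of all probe sets passed. Endothelium genes had a median of 0.06 over 10, which was -0.09 without ApoE-KO replicate 1, -0.02 without DKO replicate 2 or DKO replicate 3, and 0.20 without DKO replicate 1. Their part in the brown fat values was not tested.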

How the data were processed

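Mouse aorta RNA was measured on 6 Affymetrix whole-transcript arrays, after amplification and biotin labelling per the labels' protocols. The authors deposited 1 table of log2 intensities for 25254 probe sets; RMA and Partek, without versions, and the build mm9 stand in the submitters' processing notes. Removal of a batch effect from these values is not described by any label. The small number of arrays limits precision.

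Probe sets were named by the platform annotation, and 21496 name 1 gene. A linear model of DKO minus ApoE-KO was fitted to all 25254 (limma 3.58.1, R 4.3.3, moderated with an intensity trend), two-sided, adjusted by Benjamini-Hochberg at 0.05, with no filter on low values. The series text mentions batch as a second factor; samples carry no batch label, so the fit without pairing was the first and the replicate block the alternative. Same-numbered arrays correlated at 0.60, 0.50 and 0.64 in their deviations, so the numbers were taken as pairs from the data. The genes and 16 lists (247 entries, 234 measured) were chosen with earlier results of these data known. Named beside the 10 genes were up to 4 genes per functional list by smallest unadjusted p, the 8 genes nearest Ucp1 and family relatives; Ebf2, Zic1, Adipoq, Th, Scgb1a1, Acta2, Myh11, Nnat, Lep, Npr3 and the white fat genes passing with the block were named after their values were seen. The limma fits were run on simulated data with planted differences larger than that of any of the 10 genes. That run does not show how the fits perform for differences of the size reported here. Alternatives were other variance settings, normalization, a filter at the 40th percentile, array weights, unmoderated models and arrays left out.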

Additional observations from a re-analysis of the deposited data

How the results depend on the processing

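The limma fit without pairing passed 0 probe sets in all, 44 with the replicate block, 1 in an unmoderated linear model, and 0 in an unmoderated model with the block. Leaving out single arrays or replicate pairs gave 0 to 415, with 8 without DKO replicate 3 and, with the block, 48 without both replicate 3 arrays and 415 without both replicate 1 arrays. Of the 10 genes, only Elovl3 passed anywhere, with the block and without both replicate 1 arrays. Ucp1, Elovl3, Cox8b, Otop1, Ppargc1a and Prdm16 kept their direction under every alternative run, but not their size. With arrays or pairs left out, Ucp1 ran from -0.995 to -0.179, Cox8b from -0.66 to -0.09, Ppargc1a from 0.04 to 0.38, Prdm16 from 0.12 to 0.38, Elovl3 from -0.92 to -0.57 and Otop1 from -0.39 to -0.19. Cox7a1 turned to 0.12 with array weights. When arrays were left out, differences ran from -0.43 to 0.15 for Cox7a1, from -0.07 to 0.36 for Dio2, from -0.05 to 0.08 for Plin5 and from -0.32 to 0.09 for Cidea. Among these, Dio2 turned to -0.074 without ApoE-KO replicate 1, Plin5 to -0.045 without DKO replicate 2 and -0.049 without both replicate 2 arrays, and Cidea to 0.091 without both replicate 3 arrays. Cox7a1 turned to 0.018 without both replicate 1 arrays and was -0.39 without DKO replicate 2. Plin5 was 0.076 without DKO replicate 1. The cause was not tested. The median over the 10 genes ran from -0.35 to 0.06, and was 0.01 with array weights and 0.00 without DKO replicate 3. Brown minus white was -0.029 without the 5 white fat genes that passed with the block, an alternative chosen after seeing the data. Those genes were picked because they fell, so their removal lowers the value by construction and says nothing about its stability. Without single arrays it was 0.10 to 0.35. Elovl3 has no value above the 40th percentile filter. With 3 arrays per group, the interval of Ucp1 spans differences from -1.53 to 0.36.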

Other observations

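Without ApoE-KO replicate 3, an alternative chosen after seeing the data, the genes nearest Ucp1 outside the 10 were of another kind. They were Ifit1, an interferon-induced gene (0.07), the Fc receptor gene Fcgr3 (0.08), Cyth4, a guanine nucleotide exchange factor of blood cells (0.08), and C1qa, a complement gene of macrophages (0.09). Fcrls (0.09), the RNA-editing deaminase gene Apobec1 (0.09), Pla2g7, a phospholipase carried on lipoproteins (0.09), and Mgl2, a lectin of macrophages (0.10), completed the 8. Of these 8, 0 were among the 8 nearest over all 6 arrays, while Cox8b was nearest of all genes in both settings. Values are root mean square differences of centred log2 levels over 5 arrays, given as a description with no test.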
